A study of Mus musculus with 2 samples.

Results

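Daily rhythms of liver transcripts come from the clock inside hepatocytes and from signals that reach the liver from outside it: glucocorticoid hormones, body temperature and meals. Genes that answer to such signals can keep cycling when the local clock is stopped. The genes described here were 10 rhythmic liver genes, chosen by name with earlier results of these data known. Tsc22d3 and Fkbp5 follow glucocorticoids, and Cirbp and Rbm3 are induced by cooling. Hspa1a, Hspa1b and Hsph1 are heat shock genes that follow body temperature. Noct, Usp2 and Wee1 are taken here as the rhythmic output genes outside the core clock loop that the set also holds. A gene was measured if at least 1 probe set carried its symbol and no other, which held for 9 of the 10 among 22180 measured genes. Rbm3 was the exception, because its only probe set also lists the pseudogene Rbm3-ps.

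The study set the liver of E4bp4-LKO mice against that of WT mice on a high-fat diet. E4BP4, encoded by Nfil3, is a transcriptional repressor of the basic leucine zipper family that is itself rhythmic in liver and binds D-box elements. Each genotype was 1 array of pooled liver RNA (E4bp4-LKO, 1 array; WT, 1 array), from male mice given the diet from the age of 2 months for 12 weeks, housed at 25 °C with 12 hours of light a day. The sources used here do not give how the allele was made, in which cells it is deleted, how many mice entered a pool or at what hour livers were taken. The part of the hour in any difference was not tested, which matters for genes that rise and fall within a day.

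Values are log2 intensities, and each difference is E4bp4-LKO minus WT, so a difference of 1 is 2-fold. With 1 array per genotype there is no replicate error and no test. The level of the median gene, 4.20, served as a floor, and 11090 genes exceeded it. Their median difference was -0.02, and 45.5% of them lay above 0. The targeted gene, Nfil3, lay at 4.47 on the E4bp4-LKO array and at 5.94 on the WT array. As labelled for liver, 8 of 8 hepatocyte markers lay above the floor, Alb at 12.77 on both arrays. In bulk RNA, fewer cells of a type and less RNA per cell cannot be told apart.

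Noct alone among the 9 measured genes passed 1.5-fold upward on the E4bp4-LKO array (1 of 9), against 1.51% of the genes above the floor. Hspa1b and Usp2 passed 1.5-fold downward (2 of 9), against 2.06%. Together 3 of the 9 passed 1.5-fold, where 3.57% of the genes above the floor did so in either direction. Noct and Hspa1b also passed 2-fold, which 0.388% of those genes did upward and 0.406% downward. At 1.3-fold Tsc22d3 joined Noct among the higher genes (5.16% of genes above the floor), and the lower genes were the same pair as at 1.5-fold (6.18%). The other 6 genes did not reach 1.5-fold, and for 3 of them the arrays differed by less than 0.1. The median difference of the 9 was 0.01, with 5 genes above 0 and 4 below. The 3 genes past 1.5-fold did not share a direction. All 9 were chosen with earlier results of these data known, so their shares describe this set and test nothing.

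**Figure D1:**
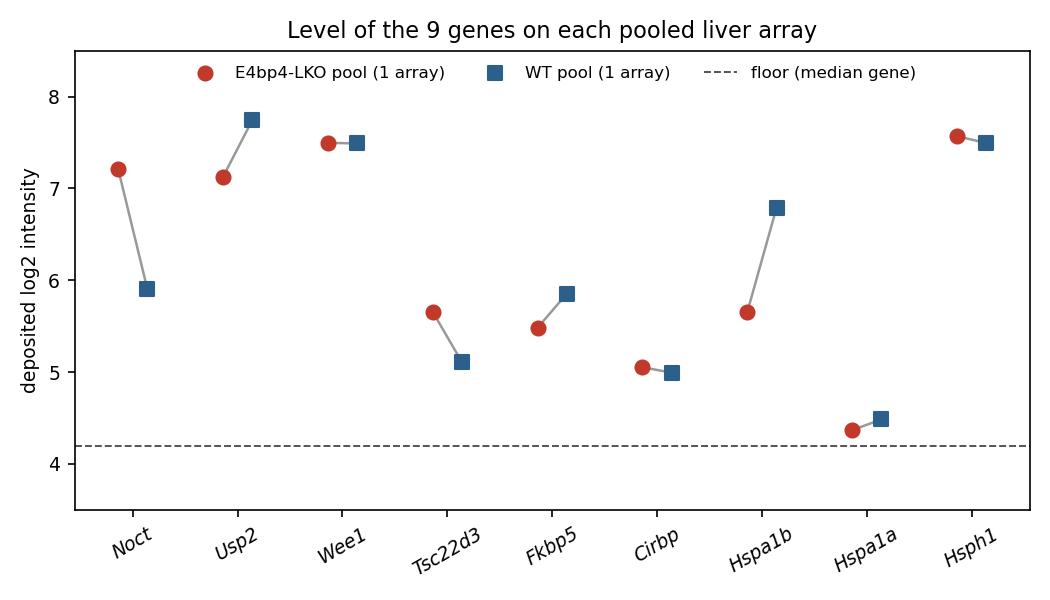
Deposited log2 intensity (vertical axis) of the 9 measured genes (horizontal axis) on the E4bp4-LKO array (red circles, left of each pair) and the WT array (blue squares), 1 array each, with the floor of 4.20 as a dashed line. Noct is higher and Hspa1b and Usp2 are lower on the E4bp4-LKO array; the height of one gene cannot be set against that of another, because probe sets differ in brightness.

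Among the 3 output genes outside the core clock, one was higher, one lower and one level. Noct encodes nocturnin, a protein of the deadenylase family that peaks around nightfall in mouse liver, acts on the phosphate of NADP(H) and is needed for normal weight gain on a high-fat diet in mice. Its signal was 7.22 on the E4bp4-LKO array and 5.90 on the WT array. This difference of 1.31 is 2.49-fold, and 19 of the 11090 genes above the floor (0.171%) were higher by as much or more. Both values stood well above the floor, by 3.02 (E4bp4-LKO) and 1.70 (WT).

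Usp2 encodes a ubiquitin-specific protease, one form of which is a rhythmic clock output in liver. Its signal was 7.12 on the E4bp4-LKO array and 7.74 on the WT array, a difference of -0.62 (1.54-fold), only just past the 1.5-fold line at 0.58. As many as 194 genes above the floor (1.75%) were lower by at least as much. Noct and Usp2 therefore stood 1.93 apart in their differences.

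Wee1 encodes the kinase that holds CDK1 inactive and so delays entry into mitosis, and in mouse liver it is driven through E-box elements. Its signal was 7.50 on the E4bp4-LKO array and 7.49 on the WT array. The difference of 0.01 was the nearest to 0 among the 9 genes, and 97.7% of genes above the floor were at least as far from 0.

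Neither of the glucocorticoid-responsive genes passed 1.5-fold, and their differences had opposite signs. Tsc22d3 encodes GILZ, a leucine zipper protein induced by the glucocorticoid receptor and known for its anti-inflammatory action. It lay at 5.66 on the E4bp4-LKO array and at 5.11 on the WT array, a difference of 0.55 or 1.46-fold, just under the 1.5-fold line. Fkbp5 encodes FKBP51, a co-chaperone of HSP90 that is induced by the same receptor and lowers its affinity for hormone. It lay at 5.48 on the E4bp4-LKO array and at 5.85 on the WT array, a difference of -0.37 or 1.29-fold. The difference of Tsc22d3 stood 0.92 above that of Fkbp5.

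Of the cold-induced RNA-binding genes only Cirbp had a value of its own, and it was level between the arrays. Cirbp, whose protein binds RNA through an RRM domain and in mouse cells stabilises transcripts of clock genes, lay at 5.05 on the E4bp4-LKO array and at 4.99 on the WT array. This difference of 0.06 is 1.04-fold, and 77.1% of genes above the floor were at least as far from 0. The probe set shared by Rbm3, a close relative of Cirbp, and its pseudogene lay at 8.38 on the E4bp4-LKO array and at 8.20 on the WT array. That difference of 0.19 (1.14-fold) belongs to the shared probe set and cannot be assigned to Rbm3 alone.

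The heat shock genes are shown with their promoter sequences because Hspa1b and Hspa1a, which encode the same inducible HSP70 chaperone, carry nearly the same promoter and yet gave different array values. Heat shock factor HSF1 binds inverted repeats of GAA, and Hsph1, which encodes the HSP110 chaperone that recharges HSP70, is another of its targets. The sequences are the 250 bases before each start site, 5′ to 3′, from RefSeq on build GRCm38.p6, all on the minus strand, at chr17:34959239-34959488 for Hspa1b, chr17:34972157-34972406 for Hspa1a and chr5:149636337-149636586 for Hsph1. Capitals mark matches to the 2-unit heat shock element, GAANNTTC or TTCNNGAA.
Hspa1b: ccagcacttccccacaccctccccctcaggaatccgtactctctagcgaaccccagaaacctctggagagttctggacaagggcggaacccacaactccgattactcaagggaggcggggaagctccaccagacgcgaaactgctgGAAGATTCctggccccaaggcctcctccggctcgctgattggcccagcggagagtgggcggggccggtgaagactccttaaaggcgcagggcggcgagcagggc
Hspa1a: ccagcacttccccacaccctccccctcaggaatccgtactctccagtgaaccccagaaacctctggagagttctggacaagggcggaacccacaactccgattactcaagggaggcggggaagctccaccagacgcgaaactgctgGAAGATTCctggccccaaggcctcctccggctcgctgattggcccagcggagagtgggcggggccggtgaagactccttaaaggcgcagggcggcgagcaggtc
Hsph1: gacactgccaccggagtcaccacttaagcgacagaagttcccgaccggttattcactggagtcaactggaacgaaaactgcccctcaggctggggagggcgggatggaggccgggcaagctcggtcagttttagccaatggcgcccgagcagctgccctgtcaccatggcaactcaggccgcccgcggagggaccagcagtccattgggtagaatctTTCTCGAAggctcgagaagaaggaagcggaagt

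Hspa1b had a signal of 5.65 in the E4bp4-LKO pool and of 6.79 in the WT pool. The difference of -1.14 is 2.20-fold, and 28 of the genes above the floor (0.252%) were lower by as much or more. Hspa1a lay at 4.37 on the E4bp4-LKO array and at 4.48 on the WT array, a difference of -0.12 or 1.08-fold. Both Hspa1a values were within 0.29 of the floor. Hsph1 was level, at 7.57 on the E4bp4-LKO array and 7.49 on the WT array (0.07, 1.05-fold). Of the 3 heat shock genes, Hspa1b alone passed 1.5-fold.

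The 250 bases before the start of Hspa1b and Hspa1a matched at 247 positions without gaps, and the 3 substitutions were T44C, C47T and G249T, counted from 1 at the 5′ end with the Hspa1b base first. The heat shock element match GAAGATTC began 104 bases before the start in both. The genes are known as near-identical copies; whether their probe sets share signal was not tested, so the value of either gene alone is uncertain. Another probe set, which lists both genes, lay far below the floor, at 2.89 on each array. If it is averaged in, an alternative among those tried, the difference of Hspa1b becomes -0.57 and no longer reaches 1.5-fold. That follows by arithmetic, since averaging in a probe set level between the arrays must shrink the difference.

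**Figure D2:**
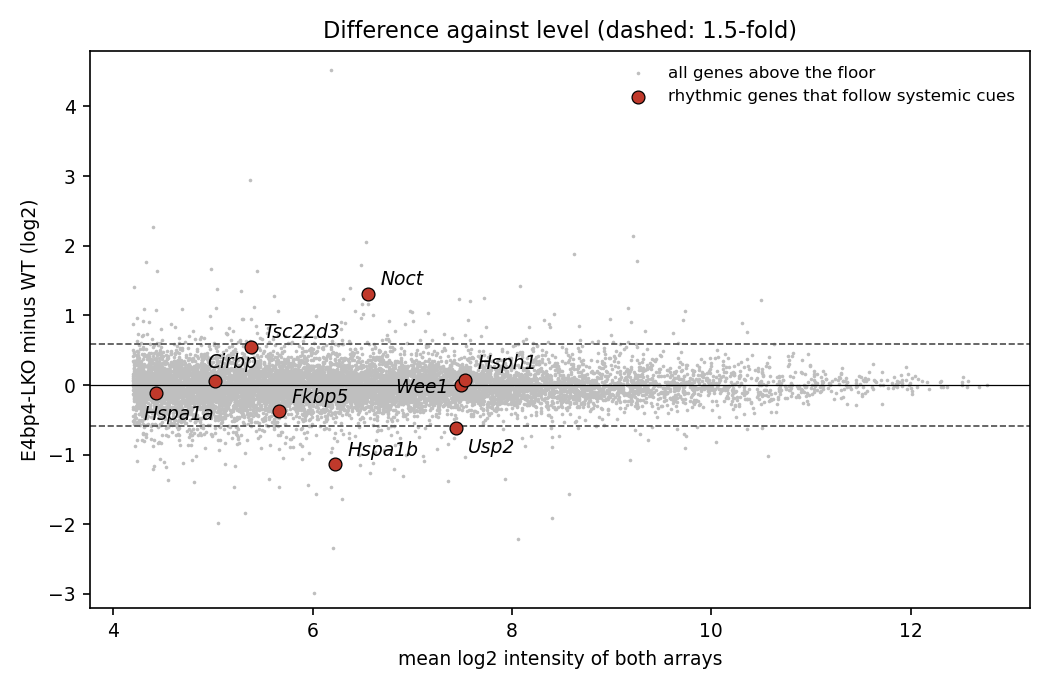
Difference between the arrays (E4bp4-LKO minus WT, log2, vertical axis) against the mean log2 intensity of both arrays (horizontal axis) for the 11090 genes above the floor (grey) and the 9 measured genes (red, named), with dashed lines at 1.5-fold. Noct stands at 1.31 and Hspa1b at -1.14, outside the band of most genes, while Usp2 and Tsc22d3 lie next to the dashed lines. The legend's name for the red genes also covers the output genes Noct, Usp2 and Wee1.

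Promoter windows were at hand for 8 of the genes, 12 windows in all, since some genes have several start sites; the windows reach from 250 bases before to 50 after the start. Wee1 and Rbm3 were not matched. The D-box, written as TTATGTAA or TTACGTAA and read on both strands, was found in 0 of the 12 windows and in 1.06% of all 32851 windows of the table. The E-box CACGTG was found in 3 of the 12 windows, of Fkbp5 and Hsph1 (7.15% of all windows). A 3-unit heat shock element adds a further inverted GAA unit at the same spacing to the 2-unit form. It was found in 2 of the 12 windows, both of Hsph1, as TTCTGGAAAGTTC, against 0.603% of all windows. The match began at base 37 after the start in one window and base 16 in the other, so the printed Hsph1 sequence does not include it. The 2-unit form was found in 4 of the 12, of Hspa1a, Hspa1b and Hsph1, and in 15.1% of all windows, and every 3-unit match contains it. The windows of Hsph1 overlap and hold the same sites. The glucocorticoid response element, GNACA and TGTNC set 3 bases apart, was found in none of the 12 (0.475% of all windows), and the cAMP response element TGACGTCA in none either (1.79%). Its shorter form TGACG was found in 4 of the 12, of Noct, Usp2, Tsc22d3 and Cirbp, and in 20.8% of all windows. These are letter matches in short windows and say nothing of binding.

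Other glucocorticoid-induced genes were mixed, as Tsc22d3 and Fkbp5 were. Of 19 above the floor, 1 passed 1.5-fold upward and 2 downward, against 1.51% and 2.06% of all genes above the floor. In this list 7 lay above 0 and 12 below, and the median was -0.06 against -0.02 for all genes above the floor. Ddit4, an inhibitor of mTORC1, was the higher one, at 6.44 on the E4bp4-LKO array and 5.58 on the WT array (0.87). Bcl6, a transcriptional repressor, was the lowest, at 6.22 on the E4bp4-LKO array and 7.42 on the WT array (-1.20). The metallothionein gene Mt2 was the other lower one (-0.73), and Zbtb16, a zinc finger factor strongly induced by glucocorticoids, differed by -0.47. Tat, tyrosine aminotransferase, and Pck1, the gluconeogenic PEPCK, both named here after their values were seen, differed by 0.16 and 0.10. Per1 was at -0.03. Other genes of the list lay farther from 0 than these, such as Mt1 and Cdkn1a (-0.34 each) and Dusp1 (0.31).

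The receptor and the proteins that hold it ready for hormone differed little. None of the 8 genes above the floor passed 1.5-fold in either direction, and the median was -0.005. Nr3c1, the glucocorticoid receptor, lay at 8.08 on the E4bp4-LKO array and at 8.13 on the WT array. Hsd11b1, which regenerates active hormone inside hepatocytes, differed by 0.16, and Serpina6, the corticosteroid carrier of plasma, by -0.29. The HSP90 gene Hsp90aa1 and the HSP70 relative Hspa8 differed by -0.27 and 0.19.

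Other heat shock genes gave no common shift beside Hspa1b. Of 18 above the floor, 0 passed 1.5-fold upward and 1 downward (1.51% and 2.06% of all genes above the floor). In this list 11 lay above 0 and 7 below, with a median of 0.01. This list overlaps others, so the same values recur. Hsp90aa1, Hspa8, Fkbp4 and Stip1 are also in the receptor list, and Hspa8, Hspa4 and Hspa4l in the HSP70 family list. Hspb1, the small heat shock protein HSP27, was the lower one, at 4.36 on the E4bp4-LKO array and 4.95 on the WT array, and its difference of -0.59 lay at the line and fell short of it with the loess trend removed or the arrays centred. Serpinh1, a collagen chaperone of the endoplasmic reticulum, differed by -0.41. The mitochondrial chaperonin partner Hspe1 differed by 0.32 and Hsp90aa1 by -0.27. The HSF1-responsive co-chaperone genes Dnajb1 and Bag3, named here after their values were seen, lay at 0.17 and 0.14. Hsf1 itself was not analysed here.

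Relatives of Hspa1a, Hspa1b and Hsph1 in the HSP70 and HSP110 families were close to level, with 0 of 9 past 1.5-fold and differences between -0.19 and 0.19. Only 3.57% of all genes above the floor passed 1.5-fold in either direction, so 0 is near that share in lists this short. The constitutive Hspa8 (0.19), the HSP110 relative Hspa4l (-0.19), the mitochondrial Hspa9 (-0.13) and the endoplasmic reticulum gene Hyou1 (-0.11) were farthest from 0. The 15 other RNA-binding and splicing genes above the floor, set beside Cirbp, had 0 past 1.5-fold and differences between -0.21 and 0.20. Hnrnpdl (-0.21), Hnrnph1 (0.20), Hnrnpd (-0.14) and Tial1 (-0.11) were farthest from 0.

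Noct and Usp2 also stood outside the range of their own enzyme families, as a gene past 1.5-fold would for most short lists. Across all genes above the floor, 3.57% passed 1.5-fold in either direction, so 0 in lists this short is near that share. The 11 other deadenylases and related nucleases above the floor differed by between -0.08 and 0.26, with a median of 0.09 and 0 past 1.5-fold. Pde12, a mitochondrial relative of nocturnin, was farthest from 0 at 0.26, followed by Parn (0.18) and by Pan2 and Cnot8 (0.16 each). The 21 other ubiquitin-specific proteases above the floor differed by between -0.20 and 0.26, with 6 above 0, 15 below, a median of -0.11 and 0 past 1.5-fold. Usp28 (0.26) and Usp14 (-0.20) marked the ends, followed by Usp10 and Usp36 (-0.19 each). Among the 11 other FK506-binding immunophilins, beside Fkbp5, 0 passed 1.5-fold and differences lay between -0.44 (Fkbp9) and 0.24 (Fkbp14), with Fkbp15 at -0.25 and Fkbp7 at -0.21. The TSC22 relatives of Tsc22d3 above the floor, Tsc22d1 and Tsc22d2, differed by -0.13 and -0.06.

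Wee1 was level, and the genes of the CDK1 switch that its kinase controls did not pass 1.5-fold above the floor. Among all genes above the floor, 3.57% passed 1.5-fold in either direction. All 6 genes of the CDK1 switch above the floor lay below 0, with a median of -0.22. Ccnb2, a mitotic cyclin, was at 5.12 on the E4bp4-LKO array and 5.65 on the WT array (-0.53). Ccna2 (-0.42), Cdk1 (-0.24) and Cdk2 (-0.21) followed. Without the floor 1 gene of the list passed 1.5-fold, the checkpoint kinase gene Chek1, at 3.64 on the E4bp4-LKO array and 4.54 on the WT array (-0.91).

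Genes that answer fasting and feeding, another systemic cue, held 2 of 17 past 1.5-fold upward and 1 downward, with a median of 0.02. Of all genes above the floor, 1.51% passed upward and 2.06% downward. Pck1, Igfbp1 and Angptl4 of this list are also in the glucocorticoid-induced list. Nr4a1, an immediate early nuclear receptor induced by glucagon, lay at 7.08 on the E4bp4-LKO array and at 5.68 on the WT array (1.40). Angptl8, a feeding-induced regulator of lipoprotein lipase, differed by 0.91 and Irs2, an insulin receptor substrate, by -0.72. The call of Irs2 was lost with probe sets of several symbols included, and the list had 0 lower genes with the floor at the 75th percentile, which Irs2 does not reach. G6pc, the last enzyme of glucose release, was at 0.42. Actin-linked targets of serum response factor, which follows blood-borne cues in liver, had 0 of 12 past 1.5-fold and a median of -0.14. Cnn2 (-0.47), Tpm1 (-0.41), Tagln2 (-0.37) and Myl9 (0.33) were farthest from 0, and Srf itself was at 0.27.

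The core clock and PAR bZIP list, set beside these genes for the local clock, held 2 of 16 past 1.5-fold upward and 5 downward. Nfil3 itself was among the 5. Of all genes above the floor, 1.51% passed upward and 2.06% downward. Bhlhe41, below the floor by its mean level, lay at 3.23 on the E4bp4-LKO array and at 4.79 on the WT array (-1.56). Arntl, the activator BMAL1, lay at 6.74 on the E4bp4-LKO array and at 5.83 on the WT array. Dbp, an activator that binds the D-box, lay at 8.65 on the E4bp4-LKO array and at 9.72 on the WT array, and the repressor gene Nr1d1 at 8.91 on the E4bp4-LKO array and at 9.56 on the WT array. Per3 differed by -0.68. Per2 had no probe set of its own.

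**Figure D3:**
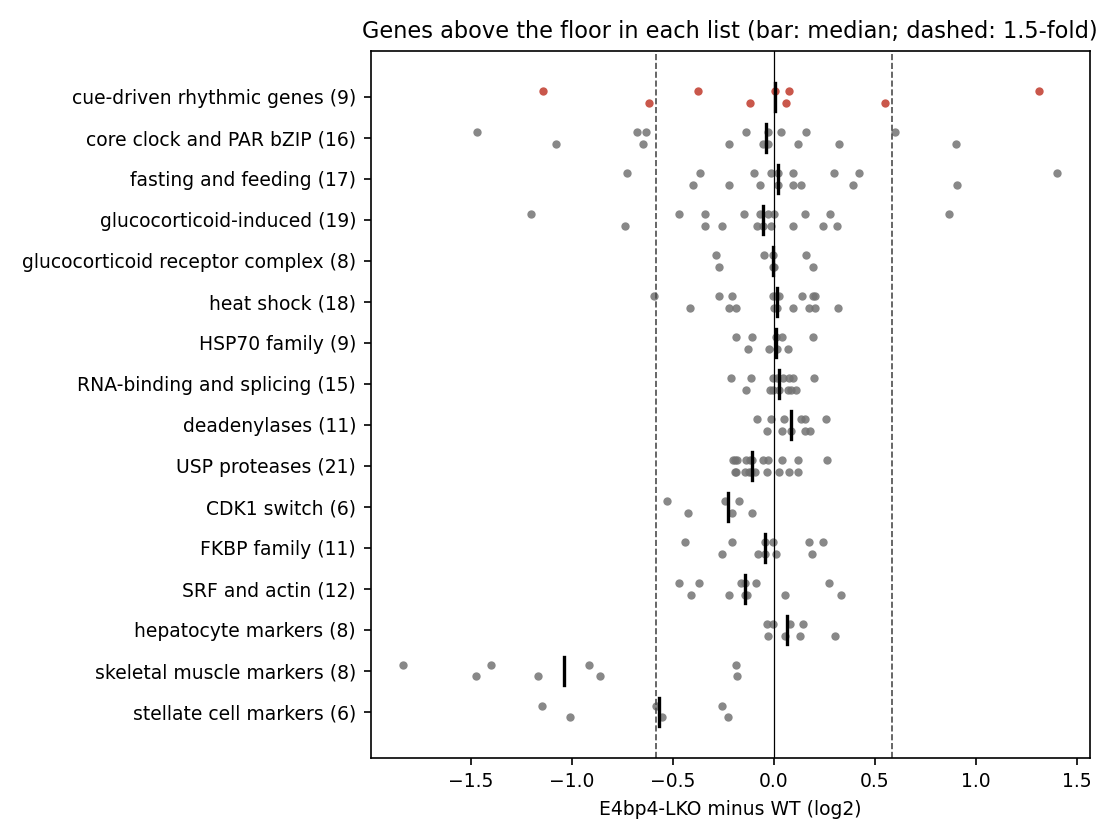
Differences (E4bp4-LKO minus WT, log2, horizontal axis) of genes above the floor, 1 point per gene. Red marks the measured rhythmic genes, labelled cue-driven but with the output genes Noct, Usp2 and Wee1 included. Grey marks related gene lists and cell markers. The number of genes is in brackets, the median is a black bar and 1.5-fold is shown by dashed lines. The HSP70, deadenylase and USP families lie inside the dashed lines, as most genes above the floor do. Skeletal muscle markers lie to the left with a median of -1.04.

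Markers of other tissue also differed between the pools. All 10 skeletal muscle markers had a difference below 0. They ranged from 3.78 to 6.80 on the E4bp4-LKO array, against 4.34 to 7.71 on the WT array, with summed log2 values of 47.9 (E4bp4-LKO) and 57.0 (WT). Of the 8 above the floor, 6 were at least 1.5-fold lower, and their median was -1.04. All 6 stellate cell markers lay below 0 as well, from 5.78 to 9.94 on the E4bp4-LKO array against 6.36 to 10.16 on the WT array, with a median of -0.57. Of the T and NK cell markers 3 of 6 were above the floor, with a median of 0.42 and 1 past 1.5-fold upward, Cd4 (0.66); over all 6 the median was -0.0052. Kupffer cell markers lay above 0 for 5 of 6 (median 0.23) and endothelial markers below 0 for 5 of 6 (median -0.21), with 0 past 1.5-fold in either list. The 8 hepatocyte markers had a median of 0.07. Of the 4 adipocyte markers, Retn lay above the floor, at 4.55 on the E4bp4-LKO array and 4.67 on the WT array, and Adipoq, Lep and Plin1 lay below it on both arrays. The part of any of these cell types in the differences of Noct, Usp2 and Hspa1b was not tested.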

How the data were processed

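The authors deposited a log2 intensity for each of 41345 probe sets on 2 arrays. The submitters' processing notes name RMA and R 3.4.0, and the series' design text says that RNA was pooled. Per the labels' protocols, TRIzol-extracted RNA (400 ng) was made into biotinylated cDNA. No build, scanner file or detection call was used here. The platform annotation gave 1 symbol to 23521 probe sets; probe sets of a gene were averaged, and each measured gene of the set had 1 probe set. The floor was the median of the genes' mean level, and a difference was called past 1.5-fold. The number of arrays limits the precision. Differences of 555 genes above the floor that have 2 probe sets varied between those with an SD of 0.22 on the log2 scale, a measure of probe disagreement only. Python 3.11.15, pandas 2.3.3 and statsmodels 0.14.6 were used. The averaging, loess and fold-calling steps were also run on simulated data. The simulated noise was smaller than the probe disagreement above, so that run gives no measure of error in these data. Alternatives were the probe set rule, loess detrending, array centring, the floor and the fold threshold. The genes and lists were chosen with earlier results of these data known. Named were all members, up to 4 genes of each list farthest from 0 above the floor, and the regulators Nfil3, Nr3c1, Hsf1, Hsd11b1, Per1, Per2, Dbp, Arntl and Nr1d1, of which Hsf1 and Per2 had no value under the single-symbol rule; other names were added after their values were seen. Motifs were searched in RefSeq promoter windows of GRCm38.p6.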

Additional observations from a re-analysis of the deposited data

How the results depend on the processing

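No paired analysis was possible because each genotype has 1 array, and leaving out an array was not possible for the same reason. Under the 9 alternatives, 465 of 484 recomputed values kept to within 1.5 times for counts, or to within 0.22 for a gene (for a median, that SD over the square root of the number of genes), and the called differences of Noct, Usp2 and Hspa1b kept their sign. Of the 484, 367 equalled the main value, many because the setting could not change them: each measured gene of the set has 1 probe set. Of 145 medians 5 changed sign, 4 of them within 0.06 of 0. With probe sets of several symbols included, Hspa1b was at -0.57, 1 of the genes was at least 1.5-fold lower, the feeding list had 0 lower and the stellate median was -0.40. With the floor at the 75th percentile, 1 of the genes was lower, the glucocorticoid-induced list had 0 higher, the heat shock and feeding lists had 0 lower, the clock list had 1 higher and 2 lower, and 2 muscle markers were lower. The heat shock list also had 0 lower with the loess trend removed or the arrays centred. Without a floor, the CDK1 list had 1 lower, the muscle median was -0.89, and that of T and NK cell markers was -0.0052, against 0.42 above the floor. The muscle median was -0.91 with the brightest probe set. At 1.3-fold 2 genes were higher, and at 2-fold 1 was lower. Loess and centring, the settings that could move Noct and Usp2, put them at up to 1.35 and -0.59. The cause of these shifts was not tested, except that a higher floor leaves fewer genes. For Hspa1b, averaging in a probe set that was level between the arrays shrinks its difference by arithmetic.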
